A study of Homo sapiens with 4 samples.

Results

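Genes of homologous recombination were examined for peaks of γH2AX, the phosphorylated form of histone variant H2A.X that spreads over chromatin next to DNA double-strand breaks, in SK-UT1, an established uterine leiomyosarcoma cell line. The set holds 9 of 19974 protein-coding genes, chosen by name: RAD54L, RAD51B, RAD51C, RAD51D, XRCC2, XRCC3, PALB2, BRCA1 and BRCA2. A peak was counted for a gene when it overlapped the gene body or the 5 kb on either side, and peaks are counted by summit. Chromatin was precipitated and sequenced (ChIP-seq) from cells in 4 conditions. One received the vehicle, 0.1% DMSO. Another received OTS186935, which inhibits the histone methyltransferase SUV39H2, at 1 µM, and another doxorubicin, which traps topoisomerase II on DNA, at 0.5 µM. The last, called the combination here, received both agents at those doses. How long the cells were exposed is not stated in the labels. There was 1 library per condition, so nothing below has a replicate check, no difference between conditions was tested, and all 3 treated libraries are set beside the same DMSO library.

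Homologous recombination repairs a double-strand break by copying an intact sister chromatid. The ends are first resected to single strands, on which BRCA1, PALB2 and BRCA2 prepare strand exchange, a chain of proteins in which PALB2 bridges the other two. A family of related proteins (RAD51B, RAD51C, RAD51D, XRCC2 and XRCC3, called the paralogs here) assists strand exchange, and the motor protein made from RAD54L drives the invasion of the duplex. Cells that lack this pathway are known to be sensitive to PARP inhibitors and to topoisomerase poisons. The peaks described here report the mark on the chromatin of these genes, not the activity of the pathway or the expression of its genes.

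In DMSO every one of the 9 gene windows had a peak, and the window total was 51 peaks. At RAD54L, XRCC3 and BRCA2 the only DMSO peak lay in the flank, outside the gene body. OTS186935 had 36 peaks in 8 genes, doxorubicin 15 in 4 genes, and the combination 11 in 5 genes. Of all protein-coding genes, 78.3%, 71.7%, 65.1% and 50.5% had a peak in their windows in the same order of libraries. Only the doxorubicin count, 4 of 9, lay below its background share, and RAD51C, XRCC2, XRCC3, PALB2 and BRCA2 were the genes with none. Genes with a DMSO peak and none with doxorubicin were 5 of 9 in the set and 22.7% of coding genes. For OTS186935 the figures were 1 of 9 (RAD51D) and 15.2%, and for the combination 4 of 9 (RAD51C, RAD51D, XRCC2 and XRCC3) and 38.8%. Fewer peaks than in DMSO were listed at 4 of 9 genes in OTS186935 (55.8% of coding genes), 8 of 9 in doxorubicin (68.4%) and 7 of 9 in the combination (83.1%). Of the 4 genes with a doxorubicin peak, RAD51D had none in the combination (33.9% of coding genes) and 3 had fewer there (66.8%). Peaks in all 4 libraries were found at RAD54L, RAD51B and BRCA1, which is 3 of 9 against 39.7% of coding genes. In gene bodies alone, 6, 7, 3 and 3 of the 9 genes had a peak, in the order DMSO, OTS186935, doxorubicin, combination. RAD51B and BRCA1, but not RAD54L, then had a peak in all 4 libraries. The share of coding genes was not taken for bodies alone.

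The genes differ greatly in length, from 17.8 kb for XRCC3 to 863 kb for RAD51B, whose window is 64.5% of the 1353 kb examined. The median body was 38.1 kb, against 24.2 kb over all coding genes. Per 100 kb of window, the 9 genes held 3.77 peaks (95% interval 2.81 to 4.95) with DMSO and 2.66 (1.86 to 3.68) with OTS186935, beside 3.73 and 2.95 over the windows of all coding genes. With doxorubicin they held 1.11 (0.62 to 1.83) beside 2.26, and with the combination 0.813 (0.406 to 1.45) beside 1.36. The doxorubicin density of the set was the only one whose interval did not reach the value for all genes, and that interval treats neighbouring peaks as independent. This rests on RAD51B: over the other 8 genes the doxorubicin density was 1.67 (0.719 to 3.28), an interval that includes 2.26. The closeness of the DMSO values also depends on RAD51B. Without it the density was 5.62 (3.71 to 8.18) with DMSO, 3.96 (2.38 to 6.18) with OTS186935 and 1.25 (0.459 to 2.72) with the combination. Those intervals still include the values for all coding genes. Taken gene by gene, the median density in the set was 4.83, 3.59, 0 and 0.573 per 100 kb in the order of the libraries, beside 4.24, 3.09, 2.03 and 0.26 over all coding genes. The lists were of unequal length. Cut to the same number of strongest peaks, they held 17, 17, 10 and 11 peaks in the set, at 7, 6, 3 and 5 genes, where 49.4%, 48.7%, 50.1% and 50.5% of coding genes had a peak. The DMSO and OTS186935 peak counts thus depend on list length by more than 1.5 times, while the gene counts stayed within 1.5 times.

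**Figure D1:**
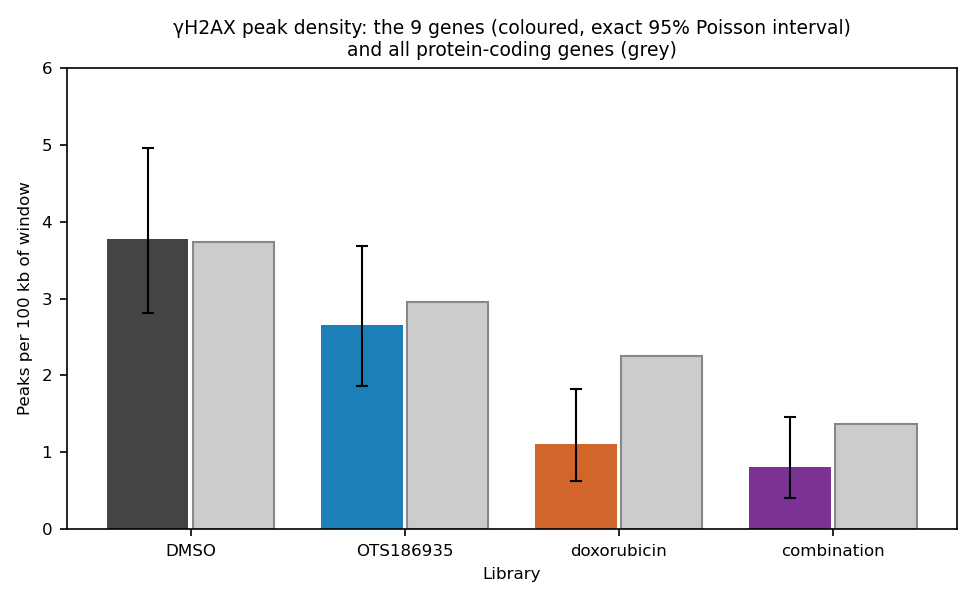
Peaks per 100 kb of window (vertical axis) in each library (horizontal axis): coloured bars are the 9 recombination genes pooled, with exact 95% Poisson intervals, and grey bars all protein-coding genes. With DMSO the bars stand at 3.77 and 3.73, and with doxorubicin at 1.11 and 2.26.

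The peaks were modest in size, and a summit rested on few DNA fragments. The fold enrichment at the summit over local background, the authors' value for each peak, had a median of 4.43 in the set for DMSO (range 2.75 to 9.44), 4.36 for OTS186935 (2.28 to 8.41), 4.77 for doxorubicin (3.54 to 8.55) and 4.84 for the combination (3.50 to 7.17). Each fold is relative to the background of its own library, and the lists differ in length, so folds of different libraries are set side by side only as a description. Medians over the whole lists were 4.22, 4.30, 4.09 and 4.20. The number of fragments at a summit in the set, solved from the deposited values, ran from 3 to 16 for DMSO, 3 to 15 for OTS186935, 4 to 14 for doxorubicin and 4 to 11 for the combination. The smallest summit anywhere in the lists was 3, 3, 3 and 4 fragments, so a place with no listed peak may still carry the mark below that limit. Strong peaks, here those whose −log10 q reached 5, numbered 13, 10, 1 and 1 in the set, at 6, 3, 1 and 1 genes, where 37.2%, 23.8%, 12.4% and 6.57% of coding genes had 1.

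**Figure D2:**
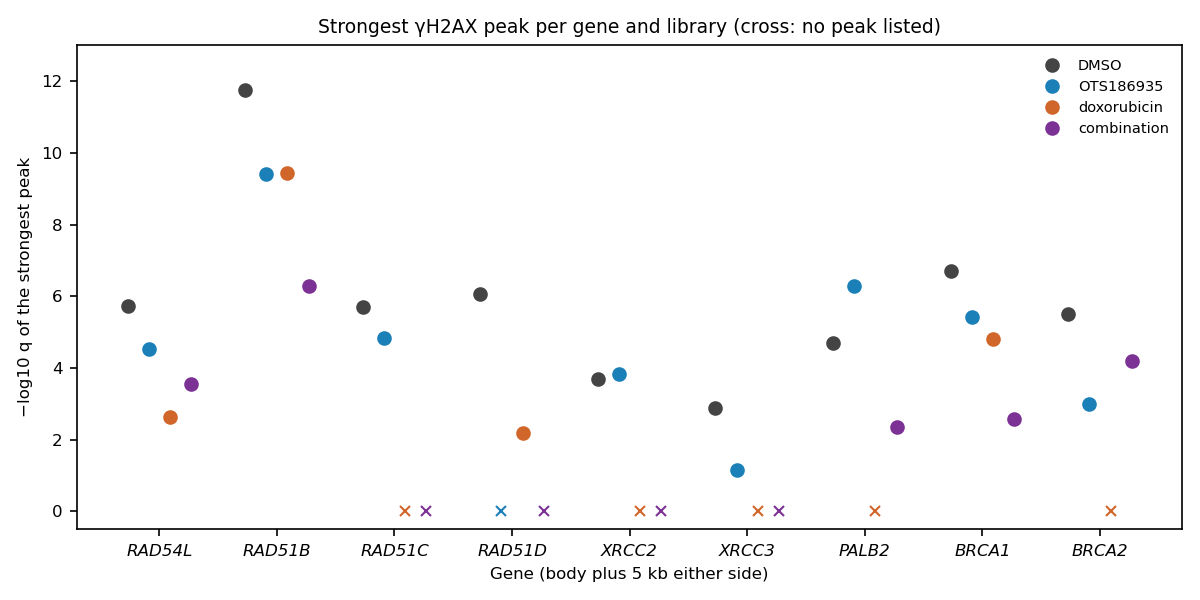
The −log10 q of the strongest peak (vertical axis) in each gene window (horizontal axis), coloured by library, with a cross at the base where no peak was listed. RAD51B has the highest value in each library, from 11.8 with DMSO to 6.29 with the combination, and RAD51C, XRCC2 and XRCC3 have crosses in both libraries that received doxorubicin. The share of coding genes without a peak in both of those libraries was not taken.

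RAD51B, on chromosome 14 (67819779 to 68683096, plus strand), encodes a paralog that works in one complex with RAD51C, RAD51D and XRCC2. It carried 24 of the 51 DMSO peaks, 17 of the 36 OTS186935 peaks, 7 of the 15 doxorubicin peaks and 5 of the 11 combination peaks. All of them lay inside the gene body, at 34 places, and none within 1 kb of either end. Its density, 2.75 peaks per 100 kb in DMSO, was below the 3.73 of all coding windows although it had the most peaks.

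The strongest peak of any of the 9 genes stood in DMSO at 32.4 kb from the 5′ end of RAD51B (67851760 to 67852421), with a fold of 9.44, a −log10 q of 11.8 and 15 fragments. No treated library had a peak there. A neighbouring place at 26.4 to 26.6 kb (67846021 to 67846616) was called in all 4 libraries, and here DMSO had the smallest summit. The fold was 4.81 for DMSO, 8.41 for OTS186935, 8.55 for doxorubicin and 6.05 for the combination, resting on 6, 13, 14 and 9 fragments, and the doxorubicin value of 9.45 for −log10 q was the only one of 5 or more in that library among the 9 genes. A few kb further on, at 38.1 to 38.2 kb, DMSO (5.50-fold), OTS186935 (5.38-fold) and the combination (7.17-fold) had a peak and doxorubicin had none. The combination peak, with a −log10 q of 6.29 and 10 fragments, was the strongest of that library in the set. Of these 3 neighbouring places, 1 was listed in DMSO alone and the other 2 with a higher fold in the combination than in DMSO.

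The second group of RAD51B peaks lay toward the 3′ end. With the body divided into 5 equal parts of 173 kb, taken from 5′ to 3′, DMSO had 4, 5, 2, 5 and 8 peaks and OTS186935 had 2, 0, 1, 7 and 7. Doxorubicin had 1, 1, 0, 0 and 5, and the combination 2, 0, 0, 0 and 3, so its peaks were all in the outer parts. The local background also differed along the gene, from 0.454 to 0.696 fragments at DMSO summits in the part at the 5′ end and from 0.454 to 2.14 in the part at the 3′ end; its share in the counts was not tested. The place at 808.7 to 809.2 kb (68628182 to 68629121), which overlaps the long non-coding RNA gene LOC100996664, was called in all 4 libraries, with folds of 6.83, 7.80, 5.78 and 4.84 and 16, 15, 10 and 9 fragments in the order DMSO, OTS186935, doxorubicin, combination. The combination peak, with its summit at 809.2 kb, overlapped those of DMSO and doxorubicin but not that of OTS186935. At 764 kb, DMSO (4.38-fold), OTS186935 (3.71-fold) and doxorubicin (3.84-fold) had a peak and the combination had none.

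The other strong RAD51B peaks were found in DMSO and OTS186935. At 537 kb the folds were 6.40 and 6.45, at 682.2 to 682.6 kb 6.98 with DMSO and 5.77 and 5.67 at 2 summits with OTS186935, and at 784.7 to 784.8 kb 4.14 and 5.31, with no peak in either library that received doxorubicin. At 745 kb DMSO had 5.61-fold and doxorubicin 4.77-fold, and at 760 kb DMSO alone had 6.56-fold. Near the 3′ end, at 857 kb in the antisense RNA gene RAD51B-AS1, OTS186935 had 7.16-fold with 9 fragments, doxorubicin 3.54-fold with 4, and DMSO none. The remaining peaks of the gene had −log10 q values below 5, and 4 of those in DMSO rested on 3 fragments, the fewest that were called.

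**Figure D3:**
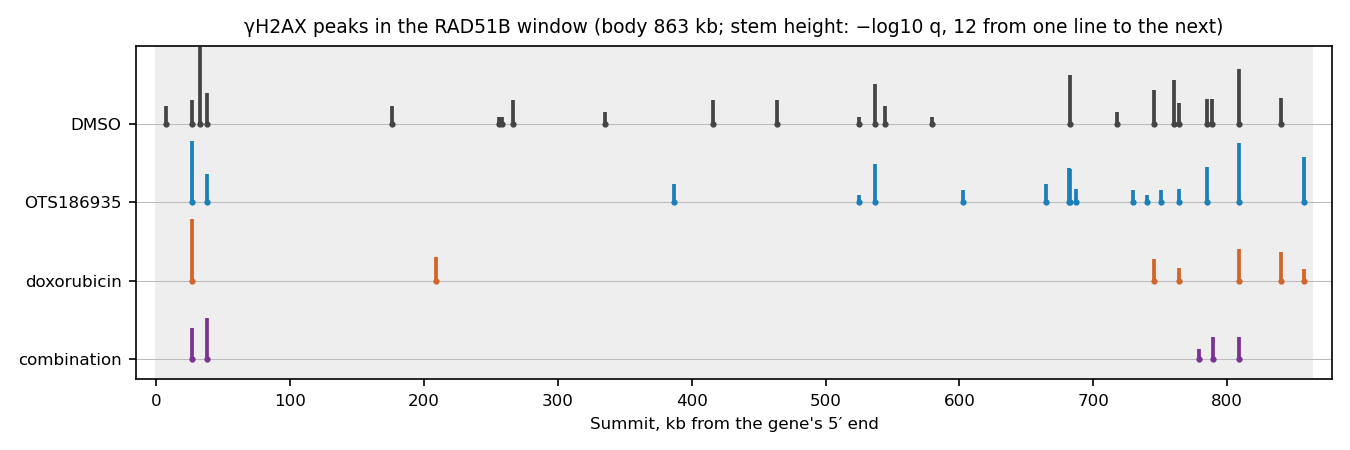
γH2AX peaks along RAD51B: the horizontal axis is the summit's distance from the 5′ end in kb, each line is a library, grey is the gene body, and stem height is the −log10 q. Peaks near 26.5 and 809 kb stand in all 4 libraries, and the 5 combination peaks all lie toward the ends of the gene.

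RAD51C, a paralog shared by both paralog complexes, lies on chromosome 17 (58692573 to 58735611, plus strand). It had 4 peaks with DMSO, 4 with OTS186935 and none with doxorubicin or the combination. One place, at 34.3 to 34.4 kb in the body where the gene overlaps LOC105371843, was shared by DMSO (6.08-fold, −log10 q 5.69, 9 fragments) and OTS186935 (5.73-fold, −log10 q 4.83, 7 fragments). The other 3 peaks of each library were at different places. Upstream of the start, DMSO had a peak whose summit lay 1.1 kb away (58691311 to 58691729, 4.34-fold, 6 fragments) and OTS186935 one at 2.6 kb (4.30-fold, 5 fragments), both inside the neighbouring genes TEX14 and IGBP1C, so neither can be given to RAD51C alone.

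RAD51D, of the same complex as RAD51B, lies on chromosome 17 (35092221 to 35119860, minus strand), entirely within the read-through gene RAD51L3-RFFL. It had 5 peaks with DMSO, none with OTS186935, 1 with doxorubicin and none in the combination. The strongest, at 18.6 kb (35101108 to 35101622), had a fold of 6.24, a −log10 q of 6.05 and 10 fragments in DMSO and was not listed elsewhere. The doxorubicin peak, at 9.0 kb, overlapped a DMSO peak (3.92-fold against 4.91-fold, 6 and 7 fragments). A weak DMSO peak (35119219 to 35119762, 3.57-fold, −log10 q 2.00, 5 fragments) had its summit 0.318 kb inside the 5′ end and reached into the promoter window of the gene.

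XRCC2, another paralog of that complex, lies on chromosome 7 (152644776 to 152676141, minus strand), and its peaks overlap no other listed gene. It had 2 peaks with DMSO, 4 with OTS186935 and none in the other libraries, which makes it the only one of the 9 with more peaks in a treated library than in DMSO apart from RAD54L. A place at 13.5 to 13.9 kb was shared (3.42-fold and 3.58-fold, 4 fragments each). OTS186935 alone had a peak just inside the start (152675627 to 152676130), with a summit 0.226 kb into the gene, and another 1.44 kb upstream, both 4.22-fold with a −log10 q of 2.83 and 5 fragments.

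XRCC2 and RAD51D were thus the only members with a peak on a promoter window. The share of coding promoter windows with a peak was not taken. The sequences are printed to show how far each peak reaches: both run 5′ to 3′ on the gene's own strand from 250 bases before the listed start to 50 after it (RefSeq, GRCh38.p14), the first at chr7:152676092-152676391 and the second at chr17:35119709-35120008, both minus strand, and capitals mark the bases inside the peak (39 and 54).
XRCC2: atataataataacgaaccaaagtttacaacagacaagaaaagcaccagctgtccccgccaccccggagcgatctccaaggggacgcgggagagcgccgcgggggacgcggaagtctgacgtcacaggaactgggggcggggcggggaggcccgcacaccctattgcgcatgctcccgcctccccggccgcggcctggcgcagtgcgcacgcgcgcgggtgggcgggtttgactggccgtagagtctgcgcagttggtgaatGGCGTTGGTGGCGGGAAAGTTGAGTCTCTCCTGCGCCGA
RAD51D: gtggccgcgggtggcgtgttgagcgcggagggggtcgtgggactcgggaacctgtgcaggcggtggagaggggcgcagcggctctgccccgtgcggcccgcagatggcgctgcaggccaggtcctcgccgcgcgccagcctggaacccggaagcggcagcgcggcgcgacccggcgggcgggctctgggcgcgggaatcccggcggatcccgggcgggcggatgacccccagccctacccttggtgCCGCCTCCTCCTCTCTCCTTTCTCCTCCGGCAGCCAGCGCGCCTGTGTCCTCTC
In both, the peak covered the transcribed end of the window and its summit lay beyond it. A base composition of 65.3% and 76% G and C, with 33 and 38 CpG dinucleotides, compares with medians of 62.3% and 21 over 22132 promoter windows of coding genes.

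XRCC3, the partner of RAD51C in a second complex, lies on chromosome 14 (103697617 to 103715451, minus strand). It had 1 peak with DMSO and 1 with OTS186935, at different places, and none in the other libraries. The DMSO peak (103693575 to 103694000) lay 3.73 kb beyond the 3′ end and the OTS186935 peak (103700276 to 103700602) 2.75 kb inside it, and both fall in the kinesin light chain gene KLC1, which overlaps XRCC3 tail to tail. Fold enrichment was low, 3.27 and 2.28, although the summits held 14 and 13 fragments, because the local background was 3.59 and 5.15 fragments, the highest at any peak of the set. The commonest background in those lists was 0.454 and 0.397.

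RAD54L, the motor of strand invasion, lies on chromosome 1 (46247688 to 46278473, plus strand) and was 1 of 3 members with a peak in every library. In each library 1 peak stood at the 3′ end, where RAD54L and LRRC41 overlap by about 1 kb in opposite directions. Beyond the end, 0.508 to 0.539 kb downstream, DMSO (46278798 to 46279156), doxorubicin and the combination had peaks that overlapped each other, with folds of 6.14, 4.28 and 4.94 and 9, 6 and 9 fragments. These peaks fall inside LRRC41 and outside the RAD54L body, so none can be given to RAD54L alone. The OTS186935 peak (46277969 to 46278428, 5.50-fold, 7 fragments) had its summit 0.309 kb before the end and overlapped none of them. The combination had a further peak 1.4 kb upstream of the start (46246079 to 46246379, 4.93-fold, −log10 q 3.27, 7 fragments) that was not listed in any other library.

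PALB2, the bridge between BRCA1 and BRCA2, lies on chromosome 16 (23603165 to 23641310, minus strand). It had 3 peaks with DMSO, 2 with OTS186935, none with doxorubicin and 1 with the combination. Just inside the gene, 1.12 to 1.32 kb from the 5′ end, DMSO had a 4.48-fold peak (23639884 to 23640573, −log10 q 3.24, 6 fragments) and OTS186935 a 6.61-fold one (23639658 to 23640175, −log10 q 6.29, 10 fragments). That is the reverse of the order at 26.5 kb, where DMSO had 5.47-fold and OTS186935 3.58-fold. The combination peak at 24.3 kb (4.09-fold, 6 fragments) overlapped neither.

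BRCA2, a mediator of strand exchange, lies on chromosome 13 (32315077 to 32400268, plus strand). Its body of 85.2 kb held no peak in any library. The single place in its window lay 3.50 to 3.62 kb upstream (32311268 to 32311943) and was listed with DMSO (6.01-fold, −log10 q 5.50, 8 fragments), OTS186935 (4.42-fold, 2.99, 6 fragments) and the combination (5.65-fold, 4.20, 8 fragments), and not with doxorubicin. It falls inside ZAR1L, whose start faces that of BRCA2 at a distance of 145 bases, so the place cannot be assigned to BRCA2.

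BRCA1, the ubiquitin ligase that acts at the choice of repair pathway and recruits PALB2, lies on chromosome 17 (43044295 to 43170327, minus strand) in the extent given by RefSeq, which reaches upstream across NBR2. It had 10 DMSO peaks, 6 in OTS186935, 6 in doxorubicin and 2 in the combination, at 12 places of which 2 were called in all 4 libraries and 2 in 3. After RAD51B it was the member with the most peaks. Of the 10 DMSO peaks 5 were also overlapped by a doxorubicin peak and 5 by an OTS186935 peak.

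RefSeq lists 2 starts for BRCA1, at 43125364 and, 45 kb further upstream, at 43170327. The downstream start faces NBR2 at 193 bases and the upstream one faces NBR1 at 82 bases. The windows of both starts share a duplicated stretch, in which 137 of 154 aligned bases (89%) are the same. They are printed here with the shared bases in capitals (5′ to 3′, minus strand, RefSeq, GRCh38.p14), at chr17:43125315-43125614 and chr17:43170278-43170577.
BRCA1 downstream start: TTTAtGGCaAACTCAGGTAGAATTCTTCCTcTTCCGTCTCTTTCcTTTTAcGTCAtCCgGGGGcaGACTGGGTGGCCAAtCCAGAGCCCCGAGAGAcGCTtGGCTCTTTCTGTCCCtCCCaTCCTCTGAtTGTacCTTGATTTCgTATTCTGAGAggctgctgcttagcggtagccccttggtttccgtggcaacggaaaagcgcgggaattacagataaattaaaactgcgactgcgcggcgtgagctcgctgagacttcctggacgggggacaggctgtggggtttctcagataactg
BRCA1 upstream start: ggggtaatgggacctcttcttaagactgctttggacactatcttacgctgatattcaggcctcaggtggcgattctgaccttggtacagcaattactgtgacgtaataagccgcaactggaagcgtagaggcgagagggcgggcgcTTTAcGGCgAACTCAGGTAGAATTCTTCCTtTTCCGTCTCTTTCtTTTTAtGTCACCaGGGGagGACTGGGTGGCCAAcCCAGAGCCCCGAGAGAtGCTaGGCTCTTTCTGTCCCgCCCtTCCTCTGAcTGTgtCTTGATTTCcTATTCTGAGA
No library had a peak on either window.

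Counted from the downstream start, the 81.1 kb on the transcribed side held 5 DMSO peaks, 3 OTS186935 peaks, 2 doxorubicin peaks and no combination peak. The upstream side, 45 kb plus the flank, held 5, 3, 4 and 2. Both places found in all 4 libraries were on the upstream side. The first (43126639 to 43127270), inside NBR2 and just upstream of the downstream start, had folds of 4.59 for DMSO, 5.67 for OTS186935, 4.68 for doxorubicin and 4.30 for the combination, with 8, 10, 7 and 7 fragments. These 4 values lay close together, and DMSO was not the highest. The second (43159166 to 43159721), in LOC101929767, had 6.19-fold, 6.12-fold, 3.60-fold and 4.03-fold in the same order, with 8, 8, 4 and 5 fragments. There the libraries without doxorubicin held the higher values.

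The places of BRCA1 called in 3 libraries were both on the transcribed side and had no combination peak. Near the 3′ end (43047954 to 43048510), 4 kb inside the gene, the folds were 6.01 with DMSO, 5.69 with OTS186935 and 4.98 with doxorubicin, with 8, 7 and 7 fragments. At 4.28 to 4.65 kb inside the downstream start (43120445 to 43121502) they were 6.36, 5.16 and 3.88, with 12, 7 and 5 fragments. The DMSO peak there had the highest −log10 q of the gene, 6.69. A place at 25.4 to 25.5 kb from the upstream end was listed with DMSO (2.87-fold, 5 fragments) and doxorubicin (5.53-fold, 11 fragments); it overlaps the pseudogene HMGN1P29, so its value is uncertain. The other 7 places of BRCA1 had −log10 q values below 5.

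**Figure D4:**
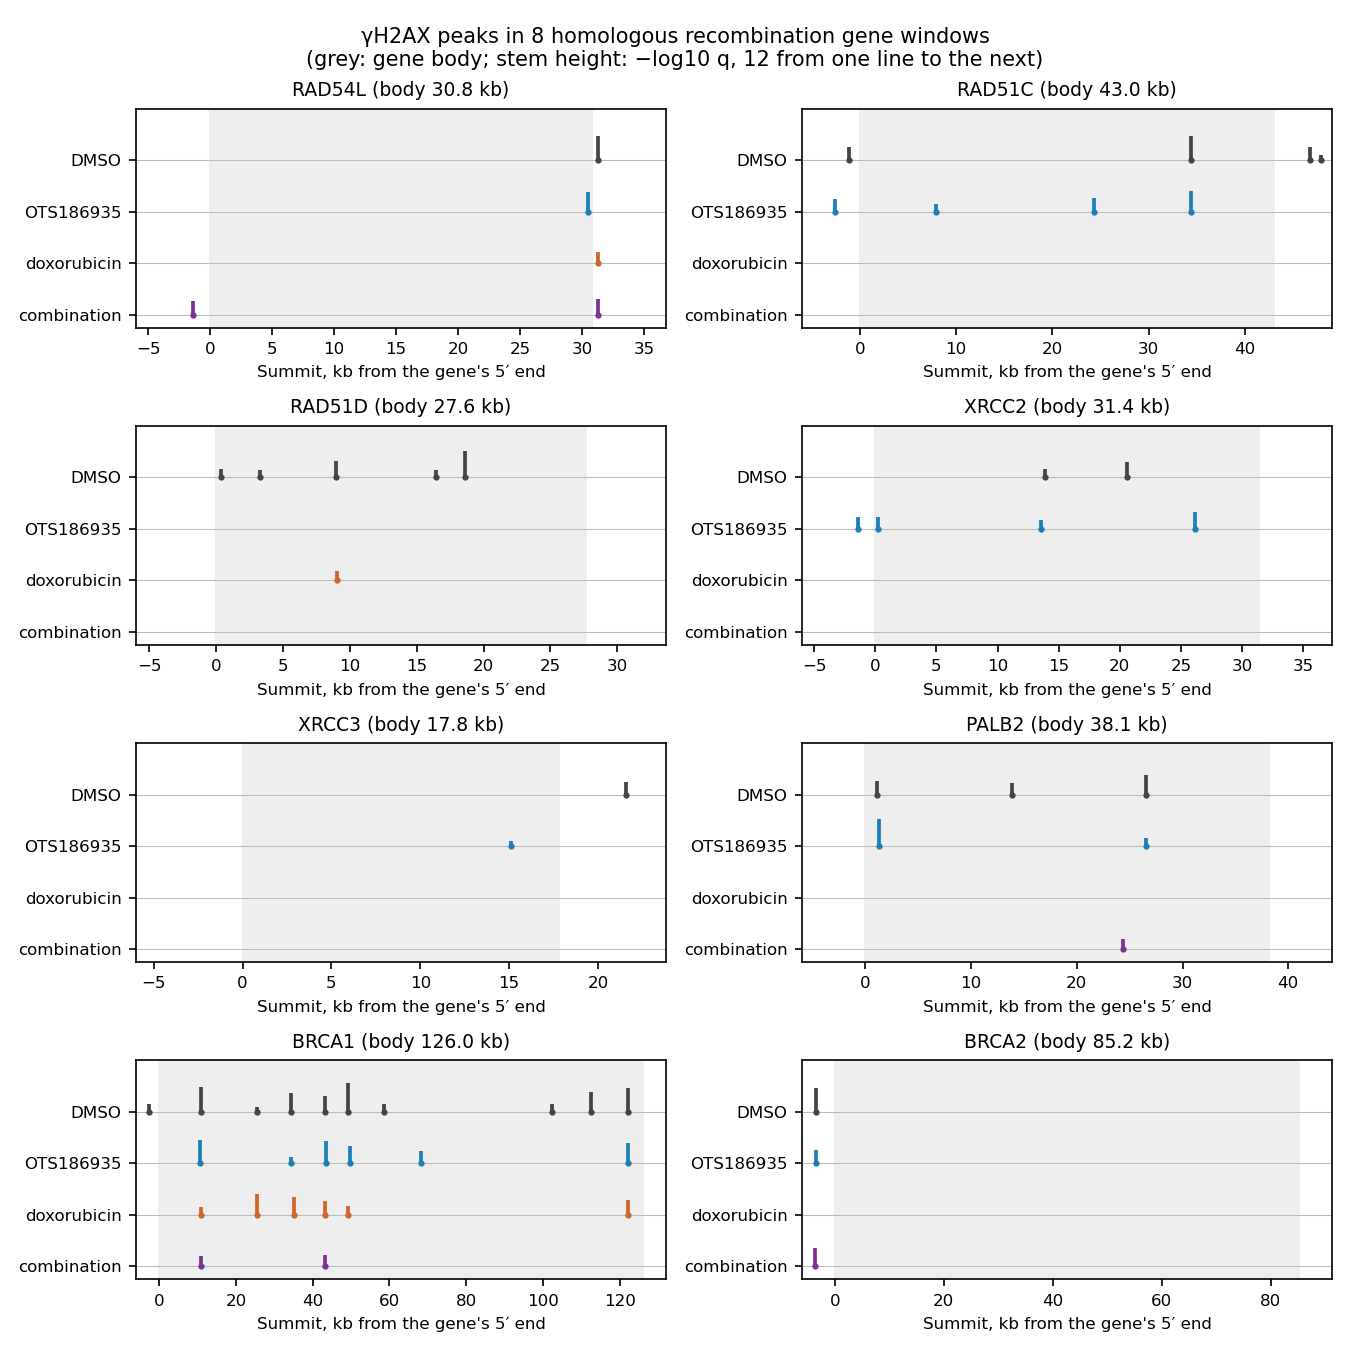
γH2AX peaks in the windows of the other 8 genes: the horizontal axis is the summit's distance from the 5′ end in kb, each line is a library, grey is the gene body, and stem height is the −log10 q. RAD54L has a peak near its 3′ end in each library and a combination peak upstream, BRCA2 has none in the body, and BRCA1 has 10, 6, 6 and 2 peaks from DMSO to the combination.

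Summits fell in the body for 44 of 51 DMSO peaks, 33 of 36 OTS186935 peaks, 14 of 15 doxorubicin peaks and 8 of 11 combination peaks, or 86.3%, 91.7%, 93.3% and 72.7%, where bodies make up 93.3% of the windows. Per 100 kb, DMSO had 3.48 summits in the bodies (exact 95% interval 2.53 to 4.68) and 7.78 in the flanks (3.13 to 16.0), the latter from 7 peaks, and these intervals overlap. RAD51B makes up 863 kb of the 1263 kb of bodies and had no flank peak. Its part in the difference was not tested. Peaks that reached within 1 kb of a gene's 5′ end numbered 3, 1, 0 and 0: in DMSO they were those of RAD51C, RAD51D and PALB2, and in OTS186935 that of XRCC2. Within 1 kb of a 3′ end there was 1 peak in each library, always that of RAD54L. Shares over all coding genes were not taken for either end.

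Joined over the libraries, the peaks of the set formed 73 places. Of these 4 (5.48%) were called in all 4 libraries, 6 in 3, 15 in 2 and 48 (65.8%) in 1, beside 7.36% in all 4 and 58.4% in 1 over the genome. DMSO alone held 27 places (37% of the 73, beside 23.6% of places over the genome), OTS186935 alone 16 (21.9% beside 16.4%), doxorubicin alone 2 (2.74% beside 12.4%) and the combination alone 3 (4.11% beside 6.07%). DMSO peaks of the set were overlapped by an OTS186935 peak in 18 of 51 cases (35.3%, exact 95% interval 22.4 to 49.9), by a doxorubicin peak in 12 (23.5%, 12.8 to 37.5) and by a combination peak in 8 (15.7%, 7.02 to 28.6). Over all DMSO peaks these shares were 46.5%, 37.2% and 25.3%. The intervals include the genome-wide share for OTS186935 and the combination and, by a narrow margin, for doxorubicin. Of the 13 strong DMSO peaks in the set, 8, 6 and 4 were overlapped, against 65.8%, 57.2% and 42.2% of such peaks in the whole list. In the other direction, 12 of 15 doxorubicin peaks of the set (80%, 51.9 to 95.7) overlapped a DMSO peak, where 54.9% did so genome-wide. For the combination it was 8 of 11 (72.7%, 39.0 to 94.0) beside 59.7%, and for OTS186935 19 of 36 (52.8%, 35.5 to 69.6) beside 55.7%. Each of these intervals includes its genome-wide share. Between the doxorubicin library and the combination, which share that drug, 5 of 15 doxorubicin peaks (33.3%, 11.8 to 61.6) overlapped a combination peak, beside 28.3%: 2 in RAD51B, 2 in BRCA1 and 1 in RAD54L.

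Starts that face another gene within 1 kb were found in 5 of the 9, namely RAD51C, XRCC3, PALB2, BRCA1 and BRCA2, and in 22.1% of 15812 coding genes with a listed start. The distances ran from 82 bases (BRCA1 and NBR1) to 528 (RAD51C and IGBP1C). No peak covered any of those paired starts, and how often peaks cover the paired starts of other genes was not counted. Short motifs were searched on both strands of the promoter windows, of which the 9 genes have 14. The cyclic AMP response element TGACGTCA occurred in 3 of these, at RAD51C and XRCC2, beside 2.26% of coding windows. The E2F-type sequence GGCGGGAA occurred in 4, at RAD54L, XRCC2 and XRCC3, beside 3.99%. In the XRCC2 window printed above, GGCGGGAA lies within the capitals, inside the OTS186935 peak. The CCAAT box occurred in 5 of the 14 windows, at 4 members, beside 34.6% of coding windows. The GC box GGGCGG, which can overlap the E2F-type sequence, occurred in 7, at 5 members, beside 56.3%, and TATAAA in none, beside 9.46%. A match is a stretch of letters and not a measured binding site. RAD51B stood apart with 32.3% to 32.7% G and C in its listed windows, at percentiles 0.89 and 1.02 of all promoter windows, and no library had a peak there. Its listed starts, 67823541 and 67823592, lie inside the gene body and not at the 5′ end, 67819779, from which positions are counted. The sequence at that 5′ end was not examined.

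Of 38 further recombination genes, 28 had a DMSO peak, 29 an OTS186935 peak, 28 a doxorubicin peak and 18 a combination peak. These are 73.7%, 76.3%, 73.7% and 47.4%, beside 78.3%, 71.7%, 65.1% and 50.5% of all coding genes, and the peaks numbered 82, 74, 63 and 32. Per 100 kb of window that was 2.59, 2.34, 1.99 and 1.01, each below the 3.73, 2.95, 2.26 and 1.36 of all coding windows. All 4 libraries had a peak at 12 of the 38 genes, beside 39.7% of all coding genes. NBN, RAD51AP1, RMI1 and RMI2 had none in any library, as did 13.3% of all coding genes. Of 6 resection genes, which trim the ends, 4, 5, 5 and 4 had a peak; MRE11, RAD50 and RBBP8 had at least 1 in each library, the strongest RAD50 folds being 5.86, 6.44, 6.60 and 4.28, and EXO1 in all but the combination. Of 18 genes of strand exchange and its mediators, 13, 13, 13 and 8 had a peak. RAD52, which anneals single strands, had 5, 6, 2 and 4 peaks, with its strongest at 6.69-fold, 8.57-fold, 7.72-fold and 5.57-fold. RAD54B, the closest relative of RAD54L, MCM9 and SPIDR had peaks in all 4 libraries, and ZSWIM7, HROB and MMS22L in all but the combination. BRIP1, a helicase that binds BRCA1, had none with doxorubicin and 6.30-fold with the combination, and MCM8 had peaks with DMSO and doxorubicin only.

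The 3 genes of RPA, the protein that coats single strands, each had a peak with DMSO, OTS186935 and doxorubicin, and with the combination RPA2 alone had 1. The strongest RPA1 peak had a fold of 7.93 in DMSO, 6.19 in OTS186935 and 4.66 in doxorubicin, where RPA3 had 5.04. Of 11 genes that process joint molecules, 8, 8, 7 and 5 had a peak. The helicase genes BLM and WRN, the topoisomerase gene TOP3A and the nuclease scaffold gene SLX4 had at least 1 in each library, RECQL5 in all but the combination, RTEL1 in all but doxorubicin, and the nuclease subunit gene EME1 with OTS186935 (7.36-fold) and doxorubicin (6.32-fold) only. The 9 genes and these 38 were not compared by a test.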

How the data were processed

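γH2AX ChIP-seq peak lists of 4 SK-UT1 libraries, 1 per condition, were used. The submitters' processing notes name build hg38 and, without roles, MACS2 2.2.7.1, bedtools 2.30.0, Bowtie2 2.4.2 and Picard 2.25.3. Calling options, filters and whether an input was used as control are not stated in the labels. The deposited values per summit are a fold enrichment (a ratio), a −log10 p, a −log10 q and a score; the score was not used further. The lists held 76870 (DMSO), 62008 (OTS186935), 48594 (doxorubicin) and 29619 (combination) peaks, and chromosomes 1 to 22 and X were kept.

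Gene extents came from a RefSeq table of GRCh38.p14, and strands, starts and promoter sequences from a RefSeq promoter table of the same assembly; all 9 genes matched in both. Neither gives exons or introns. A peak belonged to a gene when it overlapped the body plus 5 kb either side. Position is that of the summit, counted from the gene's 5′ end. Peaks of different libraries were called shared at an overlap of at least 1 bp, and overlapping peaks of the libraries were joined into places. Fragments per summit and background were obtained by solving the deposited fold and −log10 p values together, with the fold as (fragments + 1) over (background + 1) and p as a Poisson upper tail, and matched within 0.002 for 100% of peaks in each list. Promoter windows run from 250 bases before to 50 after a listed start. Intervals are exact 95% ones (Clopper-Pearson for shares, Poisson for densities), and cover counting error only. Overlap counting and solving were tested on simulated data. Python 3.11.15, numpy 2.4.6, pandas 2.3.3, scipy 1.17.1, biopython 1.88 and matplotlib 3.10.9 were used.

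The 9 genes, the list of 38 other recombination genes and the alternatives were chosen with earlier results of these data known. All 9 genes are named. Position and fold are given for peaks whose −log10 q reached 5, peaks within 1 kb of a gene end and places called in 3 or 4 libraries. For part of these the coordinates, −log10 q or fragments are given too. Of the 38 other genes, those with a peak in all 4 libraries and the 12 others with the highest −log10 q were taken, and 1 of these is not reported here. With 1 library per condition no test between conditions was made. Alternatives were other flanks, a −log10 q limit of 5, lists of equal length, merged or joined peaks, other overlap rules, leaving out RAD51B and, added after the data had been seen, 1 common −log10 p limit.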

Additional observations from a re-analysis of the deposited data

How the results depend on the processing

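Results are counts and shares without a replicate check. Of 170 values under the alternatives, 137 stayed near the main value (counts within 1.5 times, shares and densities within their exact 95% intervals) and 33 did not. No value left that range with 1 kb or 10 kb flanks, merged or joined peaks, the other overlap rules or, added after the data had been seen, the common −log10 p limit. Gene bodies alone left 6, 7, 3 and 3 members with a peak from DMSO to the combination, and only the combination count was outside the range. In all 4 libraries 2 members then had a peak. Requiring a −log10 q of 5 left 13, 10, 1 and 1 peaks in the set from DMSO to the combination (0.961, 0.739, 0.0739 and 0.0739 per 100 kb). Members with a peak were 3 (OTS186935), 1 (doxorubicin) and 1 (combination), and 1 member (RAD51B) had a peak in all 4. Other pathway genes with a peak were 10, 8, 4 and 1 of 38, beside 37.2%, 23.8%, 12.4% and 6.57% of coding genes. With both lists limited, the overlap was 0 for DMSO with doxorubicin, DMSO with the combination, and doxorubicin with the combination. Lists of equal length gave 17 peaks (1.26 per 100 kb) with DMSO and 17 (1.26) with OTS186935, and 29.4% of DMSO peaks overlapped by the combination. Other pathway genes with a peak were then 16 of 38 with DMSO and 18 with OTS186935, beside 49.4% and 48.7% of coding genes. Without RAD51B there were 27, 19, 8 and 6 peaks, at 5.62, 3.96, 1.67 and 1.25 per 100 kb, and the doxorubicin interval then includes the value of all coding genes. No paired analysis was possible because each condition had 1 library and no result comes from a test. Depth limits the comparison: summits held 3 to 16 fragments, and a peak missing from a list may lie below its calling limit.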
